A study of Homo sapiens with 4 samples.

Results

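The AP-1 and C/EBP genes examined here were JUN, JUNB, JUND, FOSL1, FOSL2, IER2, CEBPA, CEBPB, CEBPD and CEBPG, which are 10 of the 47251 genes of the gene table, chosen by name. The values came from AGS, a cell line of human gastric adenocarcinoma, in 2 libraries labelled sh-MFAP2 and 2 labelled control. Per the study's methods, the cells carried a lentiviral short hairpin RNA (shRNA) against MFAP2 or a scrambled shRNA and were selected with puromycin. The labels give both sh-MFAP2 libraries the same hairpin name, so they rest on 1 hairpin. Nothing in the labels says that replicates came from separate cultures, so the p-values measure the spread between libraries, which may be technical. Values are taken as FPKM, fragments scaled by length and library depth, because the tables name no unit. The length used for the gene values is not given. The labels describe sequencing libraries, whereas a figure legend of the paper names an expression array, and no array values were used.

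JUN, JUNB, JUND, FOSL1 and FOSL2 encode basic leucine zipper (bZIP) proteins. JUN proteins pair with each other or with FOS proteins to form AP-1, which binds DNA at sites such as TGACTCA and drives early responses to growth factors and stress. The C/EBP proteins are bZIP factors that pair among themselves, with CEBPA and CEBPB driving differentiation and acute-phase programmes in liver, fat and myeloid cells. IER2 is no bZIP gene, but an immediate early gene that is induced along with them. Several genes of this kind have no intron, so that the mRNA is copied from 1 exon without splicing.

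MFAP2, the target of the hairpin, had a listed 0 under sh-MFAP2 in each replicate, and the controls 1 and 2 had 0.0116 and 0.0138 FPKM. It was too low in the controls to check the labels from these values. The paper itself reports the knockdown in AGS cells by western blot and quantitative PCR. The steps between low values gave inferred depths of 54800000 to 74900000 reads per library. The epithelial genes EPCAM, KRT8, KRT18 and KRT19 summed to between 1731 and 1960 FPKM, and all 4 were high in every library. The fibroblast list, carried by COL1A1, summed to 2.09 to 2.34 FPKM under sh-MFAP2 and 4.37 to 4.94 FPKM in control, and the leukocyte list, carried by CD68, to 3.13 to 3.16 and 7.21 to 7.86 FPKM. The defining markers PTPRC, CD3E, COL1A2 and DCN were at or near 0 in all 4 libraries, and the endothelial list did not exceed 0.0380 FPKM.

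By GENCODE 29 (GRCh38), every protein-coding transcript of JUN, JUNB, CEBPA, CEBPB and CEBPD has 1 exon. These 5 genes are called intronless below. The other 5, JUND, FOSL1, FOSL2, IER2 and CEBPG, have at least 1 coding transcript with an intron and are called spliced. Of the members, 5 lie on chromosome 19, JUNB at chr19:12791496-12793315 on the plus strand, IER2 at chr19:13150415-13154908 (plus), JUND at chr19:18279760-18281622 (minus), CEBPA at chr19:33299934-33302564 (minus) and CEBPG at chr19:33373330-33382686 (plus). JUN lies at chr1:58780788-58784327 (minus), FOSL2 at chr2:28392448-28417312 (plus), FOSL1 at chr11:65892049-65900573 (minus) and CEBPB at chr20:50190734-50192689 (plus).

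Short stretches before the RefSeq start sites of JUN, JUND and JUNB (GRCh38.p14) are shown because they hold letters through which such genes are known to be read: a JUN-type site and a cyclic AMP response element, both bound by bZIP dimers, and a TATA box. Each is 30 bases, 5′ to 3′ on the gene's own strand, with the matched letters in capitals.
JUN, chr1:58784096-58784125, minus strand: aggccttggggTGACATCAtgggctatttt
JUND, chr19:18281804-18281833, minus strand: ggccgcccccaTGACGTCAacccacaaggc
JUNB, chr19:12791443-12791472, plus strand: tgactagcgcggTATAAAggcgtgtggctc

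The first capital lies 67 bases before the RefSeq start in JUN, 200 in JUND and 31 in JUNB. The letters TATAAA were also found 30 bases before the RefSeq start of CEBPA and 29 before a RefSeq start of CEBPB. The RefSeq starts of JUN, JUNB, CEBPA and CEBPB differ from the GENCODE coordinates given above, whereas that of JUND is the same. By those coordinates the capitals of JUN and the TATAAA of CEBPA and CEBPB lie inside the gene. Of 35116 promoters searched on both strands over the 250 bases before the start, 2.37% held TGACATCA, 1.65% TGACGTCA, 10.7% TATAAA and 4.2% TGACTCA. None of the 8 members whose promoters were searched held TGACTCA in this window. A match of letters is a description, and no value here measured binding.

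JUN, the founding subunit of AP-1, had the highest level among members detected in every library, at 48.6 and 56.7 FPKM under sh-MFAP2 and 58.6 and 57.2 FPKM in control. Both sh-MFAP2 values were below both control values, and the lowest library stood at 83.0% of the highest. JUND, a subunit usually present in resting cells, had 35.8 and 30.8 FPKM under sh-MFAP2 against 23.4 and 23.0 FPKM in control, so its groups did not overlap either. CEBPG, a C/EBP protein without a strong activation domain of its own, had 23.1 and 23.6 against 23.0 and 21.3 FPKM. Its groups were separated only by the narrow gap between 23.1 and 23.0 FPKM.

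FOSL1, which encodes the FOS-family subunit FRA1, was listed at 10.2 and 10.53 FPKM under sh-MFAP2 and at 11.3 and 10.3 FPKM in control. FOSL2, encoding FRA2, had 6.66 and 5.18 against 6.04 and 6.88 FPKM. The groups of both genes overlapped. On this scale per length the order of the evenly listed members was JUN, then JUND and CEBPG, then FOSL1, then FOSL2. The ranges of JUND (23.0 to 35.8 FPKM) and CEBPG (21.3 to 23.6 FPKM) overlapped, whereas the other neighbours in this order did not.

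The other 5 members were listed near 0 in some libraries. JUNB, a JUN paralogue, had 84.4 FPKM in control replicate 1, the highest value of any member, and was listed at 0 in the other 3 libraries. CEBPA had 21.8 and 17.6 FPKM under sh-MFAP2, 0 in control replicate 1 and 14.9 FPKM in control replicate 2. CEBPB had a listed 0 in each sh-MFAP2 replicate, and 3.15 and 5.46 FPKM in the controls. Of these 3 intronless genes, JUNB was thus high in the control library in which CEBPA was at 0.

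CEBPD (chr8:47736909-47739086, minus strand), a C/EBP gene induced by inflammatory signals, had 0 and 3.11 FPKM under sh-MFAP2 and 1.86 and 0 FPKM in control, which splits both groups. IER2 had 0.715 and 0.535 FPKM under sh-MFAP2, 0.466 FPKM in control replicate 1 and 28.1 FPKM in control replicate 2. A single control library therefore set the highest value of JUNB and, in the other control, that of IER2. In bulk RNA, fewer cells with a transcript and less of it per cell cannot be told apart, and a listed 0 in a table without counts can also be a failed estimate.

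**Figure D1:**
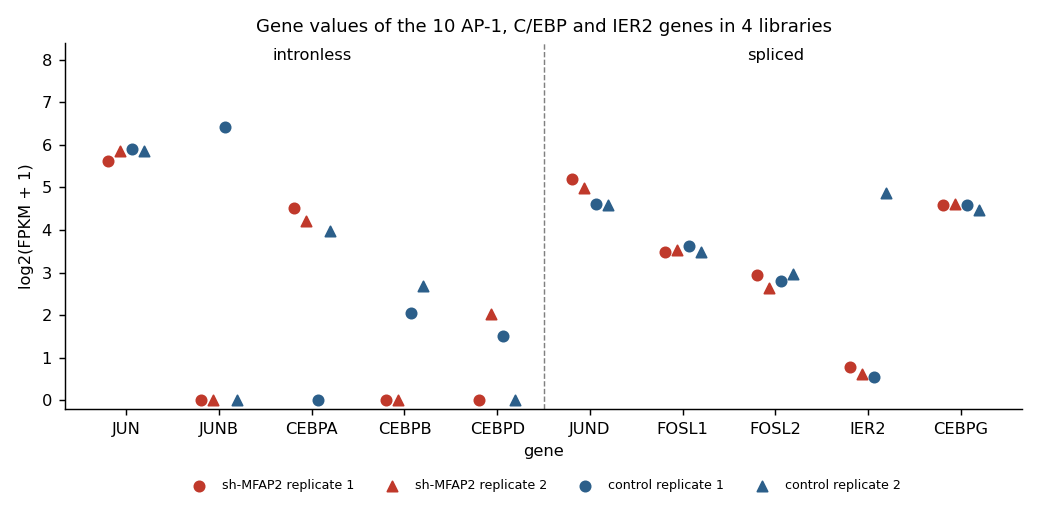
Log2(FPKM + 1) of each member in the 4 libraries (points), with sh-MFAP2 in red, control in blue and replicates 1 and 2 as circles and triangles, intronless members on the left and spliced ones on the right. On the linear scale JUN stays between 48.6 and 58.6 FPKM, whereas JUNB is at 84.4 FPKM in 1 control library and listed at 0 in the other 3.

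No member passed the thresholds of the study, p under 0.01 and adjusted p under 0.05, in limma on log2(FPKM + 1) with Benjamini-Hochberg adjustment over the 9873 genes tested. That rule called 27 genes, or 0.273% of those tested. The study applied these thresholds to a different test, a random variance model F-test, so this count is not the study's own. All 10 members passed the filter of a mean of at least 1 FPKM, although JUNB, CEBPB and IER2 passed it through their control values and CEBPD through its sh-MFAP2 values. Without adjustment, 2 members had p under 0.05, JUND higher and CEBPB lower under sh-MFAP2, beside 12.3% of all genes. With the replicate number as a block it was 1 member (CEBPB), beside 722 of the 9873 genes. JUND was not under 0.05 with the block or without either control library. The lower sh-MFAP2 value exceeded the higher control value for 3 members (JUND, CEBPA and CEBPG), beside 17.5% of all genes, and the reverse held for 2 (JUN and CEBPB), beside 31.4%. With 2 libraries against 2, an exact permutation test of 1 gene cannot give p below 0.333, so the tests lean on a variance that limma pools over genes.

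For JUND the log2 fold change on the log2(FPKM + 1) scale was 0.50 (SE 0.126), with a limma adjusted p of 0.361. It was positive under all alternatives, from 0.39 to 0.60, and the adjusted p ran from 0.180 to 0.915. CEBPB had a limma adjusted p of 0.137 (0.0841 to 0.359 over the alternatives), which is no support for a difference, since the gene entered the test only through its control values. No fold change is given for CEBPB or JUNB, since both sh-MFAP2 libraries were listed at 0. For JUNB, limma gave an adjusted p of 0.585.

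The fold changes of CEBPA and IER2 were large but had errors of the same order. CEBPA had a log2 fold change of 2.37 (SE 1.46, limma adjusted p = 0.539), which was 0.38 without control replicate 1, where it was listed at 0, and 4.37 without control replicate 2 (limma adjusted p from 0.116 to 0.837 over the alternatives). IER2 had -2.01 (SE 1.57, limma adjusted p = 0.606), which turned to 0.15 without control replicate 2 and was -4.17 without control replicate 1. CEBPD had 0.26 (SE 0.930, limma adjusted p = 0.913) and changed sign when either sh-MFAP2 replicate 2 (-0.76) or control replicate 2 (-0.50) was left out. Leaving out 1 library thus changed the size or the sign of all 3 fold changes.

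For the evenly listed members the differences were small. JUN had a log2 fold change of -0.14 (SE 0.128, limma adjusted p = 0.653) and CEBPG of 0.08 (SE 0.107, limma adjusted p = 0.766). JUN was at -0.03 without sh-MFAP2 replicate 1 and at -0.25 without sh-MFAP2 replicate 2, and CEBPG was at 0.02 without control replicate 2 and at 0.13 without control replicate 1. FOSL2 had -0.11 (SE 0.160, limma adjusted p = 0.767). FOSL1 had -0.05 (SE 0.109, limma adjusted p = 0.843), which was 0.01 with quantile normalization and also with median-of-ratios scaling. None of these differences passed the test, which does not show that the groups were equal. The median over all 10 members was -0.08 (-0.16 to 0.01 on leaving out a library, the last without control replicate 1), that over the 8 members without a group at 0 was 0.01, and that over all genes tested was -0.05.

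**Figure D2:**
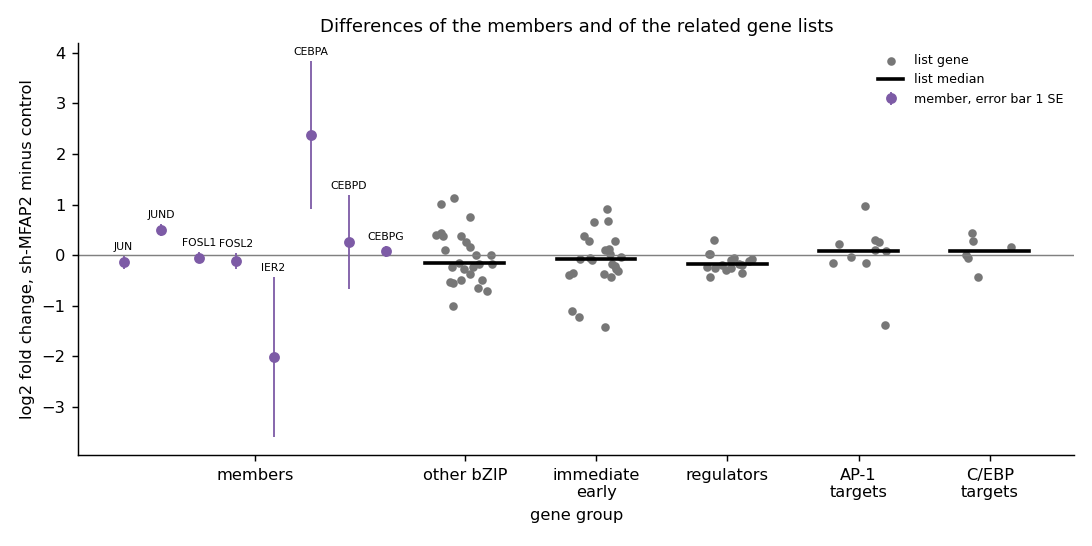
Log2 fold change, sh-MFAP2 minus control on log2(FPKM + 1), for members (bars are 1 SE) and for genes of 5 related lists (black line, list median), leaving out JUNB, CEBPB and other genes with a group at 0. The bars of CEBPA (2.37), IER2 (-2.01) and CEBPD (0.26) are long, while JUN, FOSL1, FOSL2 and CEBPG lie close to 0.

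The intronless and spliced members were then compared for values near 0, meaning under 10% of the gene's highest library where that highest value was at least 5 FPKM. Of the 5 intronless members, 3 were near 0 in some library (JUNB, CEBPA and CEBPB), and of the 5 spliced members, 1 (IER2). An exact 0 was listed for 4 intronless members, CEBPD included, and for no spliced member. CEBPD did not count as near 0 because its highest value of 3.11 FPKM was below 5 FPKM, and CEBPB, at 5.46 FPKM, lay just above that limit. JUN was the only intronless member without a 0.

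The same count over the whole table gave 51 of 72 intronless coding genes near 0 in some library (70.8%) and 126 of 6256 spliced ones (2.01%). All 72 reached 5 FPKM in some library, as did 4 of the intronless members, of which 3 were near 0. The members' share was thus near the background of intronless genes and is not particular to the AP-1 and C/EBP genes. Exact zeros were listed for 47 of the 72 intronless genes and for 8 of the spliced ones. They included MT-CYB, a mitochondrial gene that respiring cells use, at 0 and 35.9 FPKM under sh-MFAP2 and at 24.6 and 4.1e-05 FPKM in control. JUN was 1 of the 21 intronless genes that were not near 0 in any library, as was HSPA1B, a heat shock protein gene, at 55.3 to 61.8 FPKM.

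**Figure D3:**
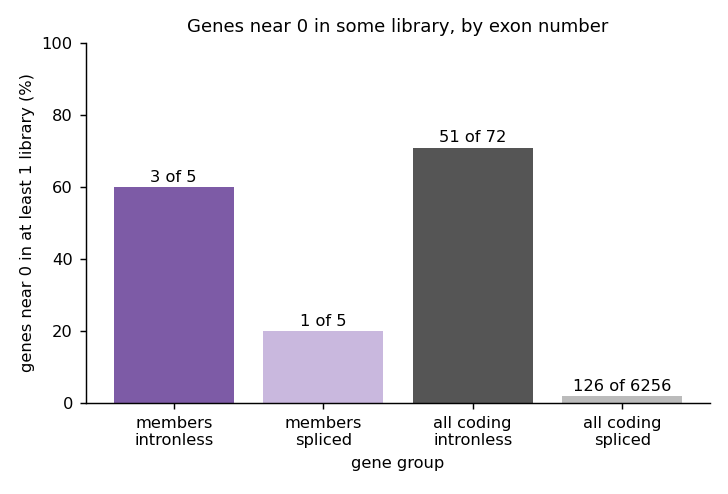
Bars give the share of genes near 0 in some library, in percent, for the members and for all coding genes that reached 5 FPKM, split into intronless and spliced. Intronless genes reach 70.8% and spliced genes 2.01%, and 3 of 5 intronless and 1 of 5 spliced members were near 0. The 5 intronless members include CEBPD, which stayed below 5 FPKM and so could not count as near 0.

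The intronless genes near 0 numbered 13 in sh-MFAP2 replicate 1, 27 in sh-MFAP2 replicate 2, 29 in control replicate 1 and 28 in control replicate 2. CEBPB was 1 of 10 intronless genes that were near 0 in both libraries of 1 group only. JUNB was 1 of 12 near 0 in 3 libraries, and CEBPA 1 of 17 near 0 in a single library. Values near 0 were thus found in libraries of both groups.

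The intronless members were also placed by level and length among the intronless genes, and the part of either in the values near 0 was not tested. By highest value, JUNB ranked 3, JUN 8, CEBPA 21 and CEBPB 67 among the 72, and the share near 0 was 68.0%, 72.7% and 72.0% for genes reaching 5 to 10, 10 to 20 and at least 20 FPKM. By transcript length, 17 of 25 genes under 2000 bases, 18 of 22 between 2000 and 3000 bases and 16 of 25 longer genes were near 0. JUN, at 3540 bases, belongs to the longest class, JUNB (1820 bases) and CEBPB (1956 bases) to the shortest, and CEBPA (2631 bases) to the middle one.

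The members that were unevenly listed had GC-rich transcripts. JUNB had 64.9% GC, CEBPA 65.9%, CEBPB 66.2%, IER2 67.2% and CEBPD 70.0%, compared with 56.7% for JUN, 60.04% for FOSL1, 53.3% for FOSL2 and 43.9% for CEBPG. JUND was the exception, with 69.7% GC and no value near 0. Over the whole table the share of intronless genes near 0 was 90.0% at under 45% GC, 79.2% from 45 to 55%, 63.3% from 55 to 65% and 4 of 8 genes at 65% or more. The order among the members, which mixes intronless and spliced genes, was not that of intronless genes as a whole. The intronless class at 65% or more includes CEBPA and CEBPB themselves. Among spliced genes the share near 0 was 2.41%, 1.64%, 1.73% and 3.61% in the same GC classes, highest at 65% or more. The part of GC content in these values was not tested.

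**Figure D4:**
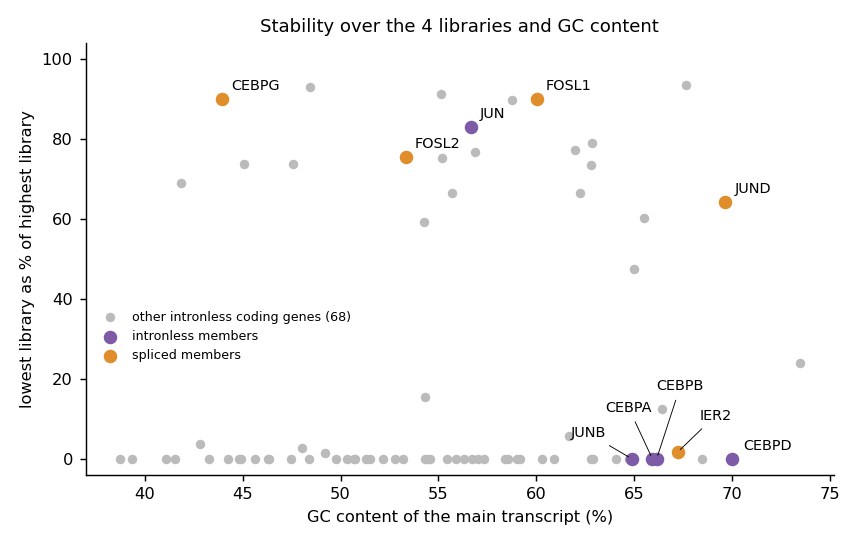
Lowest library as a percent of the highest library (vertical axis) against GC content of the main transcript in percent (horizontal axis), for the members and the 68 other intronless coding genes that reached 5 FPKM. JUNB, CEBPA, CEBPB, CEBPD and IER2 lie at or near 0 with 64.9 to 70.0% GC, while JUND lies at 64.2% of its highest value with 69.7% GC.

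JUND and IER2 stand on the edge of the division by exons. JUND counts as spliced through a second transcript with 2 exons, but its main transcript has 1 exon (1863 bases) and carried all but a trace of its value. Taken by the main transcript, 3 of 6 single-exon members and 1 of 4 others were near 0, a count added after the values were seen. IER2 and CEBPG have their coding sequence in 1 exon and an intron outside it. Counted by coding sequence, 4 of 7 members with 1 coding exon and 0 of 3 others (JUND, FOSL1 and FOSL2) were near 0.

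In IER2 the library with the high value listed a different transcript. ENST00000587885, with 2 exons over 1291 bases, had 66.9 FPKM in control replicate 2, 0.00891 FPKM in control replicate 1 and 0 and 0.00869 FPKM under sh-MFAP2. Its value in control replicate 2 exceeded the IER2 gene value of 28.1 FPKM there, so gene values were not sums of transcript values. ENST00000588173, a single-exon transcript of 2934 bases, had 0.734 and 0.546 FPKM under sh-MFAP2, 0.463 FPKM in control replicate 1 and 0 in control replicate 2. It carried 92.2% to 97.3% of the summed transcript values in the 3 low libraries and none in the high one. At the inferred depth, the first transcript stood for 6466 reads in control replicate 2, and the second for 80 to 131 reads in each of the other 3 libraries.

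The main transcripts of the spliced FOS-family genes were listed above 0 in every library, whereas some minor ones were at 0 in some libraries. ENST00000312562, the main transcript of FOSL1, held 68.7% and 44.3% of the summed values under sh-MFAP2 and 63.4% and 62.0% in control. FOSL1 ENST00000532401 held 14.1% and 28.7% against 7.70% and 16.8%. Both shares differed more between the sh-MFAP2 replicates than between the control replicates, while the gene's level stayed between 10.2 and 11.3 FPKM. The main transcript of FOSL2, ENST00000264716, held 90.6% to 96.7%, and that of CEBPG 99.3% to 99.5%.

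**Figure D5:**
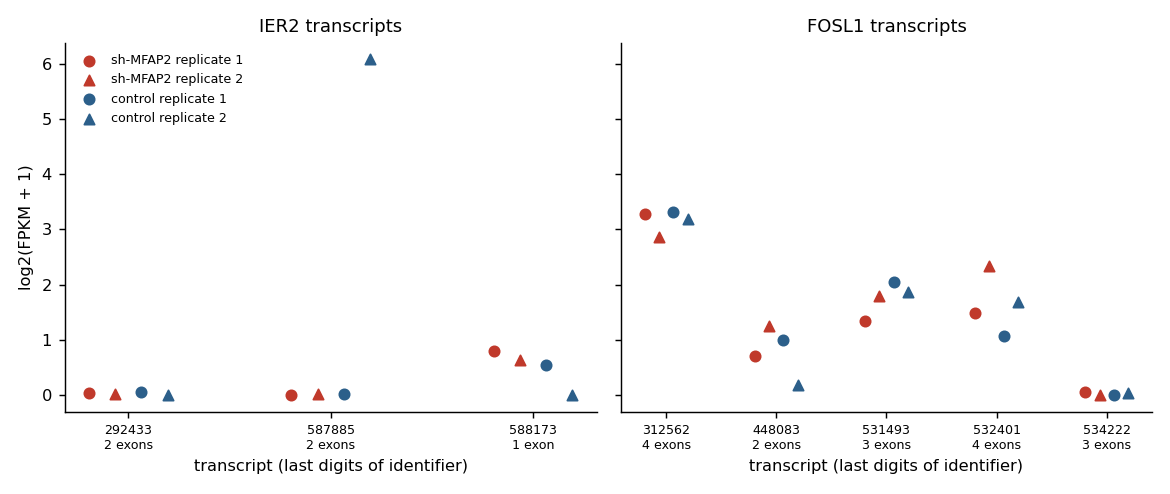
Log2(FPKM + 1) of the listed transcripts of IER2 (left) and FOSL1 (right), with 1 point for each library, sh-MFAP2 in red and control in blue. IER2 is carried by ENST00000587885 at 66.9 FPKM in control replicate 2 and by ENST00000588173 at 0.463 to 0.734 FPKM elsewhere, while the main FOSL1 transcript is listed in all 4.

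Genes that overlap an exon of a member on the other strand could share reads with it, since the strand setting of the count is not given in the sources used here. HOOK2 overlaps JUNB and had 4.03 and 3.34 FPKM under sh-MFAP2 and 3.31 and 4.08 FPKM in control (replicates 1 and 2 in each group). CEBPB-AS1 overlaps CEBPB and had 0.127 to 0.287 FPKM. The antisense genes CTD-2540B15.11 and CTD-2540B15.7 overlap CEBPA and did not exceed 0.339 FPKM, and CTC-250I14.6 overlaps IER2 and did not exceed 0.746 FPKM. The part of shared reads in the members' values was not tested.

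JUN was the only intronless member with even values, and its pattern over the 4 libraries was compared with all other genes tested. The nearest by Euclidean distance between centred log2(FPKM + 1) values were FAM109B (distance 0.0108), RFXAP (0.0122) and OCEL1 (0.0129). FAM109B had 2.55 and 3.12 FPKM under sh-MFAP2 and 3.29 and 3.16 FPKM in control. Like JUN, it was lowest in sh-MFAP2 replicate 1. With 4 libraries such likeness is a description.

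Other bZIP genes were read from the same fit. Of 40 listed, 26 were tested and none was called, with 3 higher and 3 lower at p under 0.05 without adjustment, beside 384 higher and 830 lower of the 9873 genes (12.3%), and a median log2 fold change of -0.16. The groups did not overlap for 16 of the 26, with sh-MFAP2 lower for 11 and higher for 5, beside 31.4% and 17.5% of all genes. BACH1, a repressor of antioxidant genes, had 1.17 and 1.38 FPKM under sh-MFAP2 and 3.57 and 3.51 FPKM in control (log2 fold change -0.999, SE 0.109, limma adjusted p = 0.145). XBP1, a factor of the unfolded protein response, had 24.6 and 25.97 against 16.9 and 12.6 FPKM (log2 fold change 0.76, SE 0.178, limma adjusted p = 0.346), and TEF, a factor of circadian output, had 2.55 and 2.41 against 4.40 and 5.004 FPKM (-0.71, SE 0.113, limma adjusted p = 0.256). FOS, the AP-1 partner of the JUN proteins, had 9.93 and 10.0 against 6.79 and 7.46 FPKM (log2 fold change 0.44, limma adjusted p = 0.352). BATF, which also pairs with JUN proteins, had 16.6 and 16.03 against 12.2 and 12.2 FPKM (0.39, limma adjusted p = 0.362). CREB1, a factor activated by cyclic AMP signalling, had 1.65 and 1.91 against 2.66 and 3.19 FPKM (-0.50, limma adjusted p = 0.368). FOS, BATF and CREB1 were chosen after their values were seen.

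Of 30 other immediate early genes, 25 were tested and none was called, with 2 higher and 1 lower at p under 0.05 without adjustment (12.3% of all genes in both directions). The groups did not overlap for 9, with sh-MFAP2 lower for 6 and higher for 3, beside 31.4% and 17.5% of all genes. The median log2 fold change was -0.08, also without IER5, whose controls were at 0. EGR1, a zinc finger factor induced through ERK signalling, had 30.4 and 29.7 FPKM under sh-MFAP2 and 18.8 and 18.4 FPKM in control (log2 fold change 0.67, SE 0.0997, limma adjusted p = 0.246). KLF2 had 1.93 and 1.93 against 0.595 and 1.12 FPKM (0.67, SE 0.179, limma adjusted p = 0.371). BTG1, an antiproliferative gene, had 0.206 and 0.363 against 3.05 and 1.94 FPKM (-1.43, SE 0.205, limma adjusted p = 0.238).

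Near-zero values also occurred in these 2 lists and the 3 that follow. Of their genes reaching 5 FPKM, 1 of 2 intronless genes and 3 of 56 spliced genes were near 0 in some library. The intronless IER5 was listed at 15.8 FPKM in sh-MFAP2 replicate 1 and at 0 in the other libraries, whereas IER5L, also intronless, had 7.26 to 15.3 FPKM. Of the spliced genes, IER3 had 85.4 and 4.37 FPKM under sh-MFAP2 and 72.5 and 6.98 FPKM in control. ZFP36, an mRNA decay factor, had 41.98 and 4.11 against 31.5 and 35.8 FPKM, and NFIL3 had 4.07 and 5.04 against 5.17 and 0.0265 FPKM.

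Of 18 kinases and other regulators of these factors, 16 were tested, none was called and none had p under 0.05 without adjustment, with a median log2 fold change of -0.18. The groups did not overlap for 9 of them, with sh-MFAP2 lower for 8 and higher for 1, beside 31.4% and 17.5% of all genes. MAPK8, the JNK1 kinase that phosphorylates JUN, had 1.71 and 2.20 FPKM under sh-MFAP2 against 2.58 and 2.58 FPKM in control (log2 fold change -0.28, SE 0.131, limma adjusted p = 0.458). MAPK3, the ERK1 kinase, had 16.7 and 15.95 against 12.1 and 14.1 FPKM (0.30, SE 0.124, limma adjusted p = 0.424). RPS6KA1, a kinase downstream of ERK, had 10.2 and 10.2 against 11.98 and 11.5 FPKM (-0.19, SE 0.0994, limma adjusted p = 0.497).

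Genes known as AP-1 targets were tested for 10 of 19, and none was called or had p under 0.05 without adjustment, with a median log2 fold change of 0.09. Here the groups did not overlap for 7, with sh-MFAP2 higher for 5 and lower for 2, beside 17.5% and 31.4% of all genes. PLAUR, the urokinase receptor, had 7.64 and 6.68 FPKM under sh-MFAP2 against 5.77 and 5.80 FPKM in control (limma adjusted p = 0.441). TIMP1, a metalloproteinase inhibitor, had 136 and 120 against 109 and 97.2 FPKM (limma adjusted p = 0.450), and HMGA1, a chromatin protein, had 318 and 252 against 212 and 96.0 FPKM (limma adjusted p = 0.451). Of 14 genes known as targets of C/EBP factors or their stress partners, 6 were tested and none was called, with a median of 0.08. At limma p under 0.05 without adjustment 1 was higher and 1 lower, beside 12.3% of all genes in both directions. The groups did not overlap for 1 higher and 1 lower gene, beside 17.5% and 31.4% of all genes. ASNS, asparagine synthetase, had 6.74 and 6.34 against 4.58 and 4.49 FPKM (0.44, limma adjusted p = 0.341), PTGS2, the inducible cyclooxygenase, had 0.800 and 0.981 against 1.63 and 1.47 FPKM (-0.43, limma adjusted p = 0.370), and DDIT4, a stress-induced inhibitor of mTOR signalling, had 2.59 and 2.65 against 1.45 and 3.31 FPKM (0.16, limma adjusted p = 0.841).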

How the data were processed

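RNA-seq libraries of AGS cells, 2 sh-MFAP2 and 2 control, were grouped by their labels. The authors deposited a gene table and a table of 180500 transcripts whose values were taken as FPKM, since the values are not whole and follow steps of read over length. The submitters' processing notes name the build hg38. The aligner and the program that estimated FPKM are not given in the sources used here. Of the gene identifiers, 43715 (92.5%) matched GENCODE 29, which gave exons, coordinates and GC content. Promoters came from RefSeq (GRCh38.p14), with 8 of the 10 members used.

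Genes averaging 1 FPKM or more were tested on log2(FPKM + 1), a scale that understates the change of low genes, with lmFit and eBayes with trend in limma 3.58.1 under R 4.3.3, two-sided, with Benjamini-Hochberg adjustment. The fit was tested on simulated data. The other steps used Python 3.11.15 with pandas 2.3.3, numpy 2.4.6 and, for figures, matplotlib 3.10.9.

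Depth was inferred from the steps of low values, of which 59.7% to 59.9% per library were whole within 0.05, so reads were not recovered and no count test was run. Counting intervals for single FPKM values therefore cannot be given.

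The members and gene lists were chosen with earlier results of these data known. Named were all members, the called genes of each list or else the 3 with the smallest p, the 3 nearest to JUN, and overlapping genes. FOS, BATF, CREB1, IER3, ZFP36, NFIL3, IER5, IER5L, HSPA1B and MT-CYB were added after their values were seen. The alternatives were other filters, pseudocounts, scalings, thresholds and near-0 limits, the replicate block, transcript sums and leaving out each library. The promoters of CEBPD and FOSL1 were not used here, and 1 marker is not reported here.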

Additional observations from a re-analysis of the deposited data

How the results depend on the processing

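The number of genes called, 27, changed to 6 without the filter (23806 genes tested), to 9 at a mean of at least 5 FPKM (5759 genes tested), to 46 at adjusted p under 0.1 alone and to 1214 at unadjusted p under 0.05 alone. With the replicate number as a block it was 0, with 722 genes at unadjusted p under 0.05. Same-numbered libraries did not deviate together (r = -0.0572 over 9873 genes), and were not treated as pairs. Leaving out each library in turn gave 0 to 0 calls in limma, with 555 to 2166 genes at unadjusted p under 0.05, the lone library of a group being assumed to vary like the other group. The members called were 0 under every alternative except unadjusted p under 0.05 alone, which gave 2. Leaving out a library gave 1 to 3 intronless members near 0, the 1 without control replicate 1, and 0 to 1 spliced members, the 0 without control replicate 2. The intronless count was 4 where the highest value had to reach 1 FPKM and 2 where it had to reach 10 FPKM. The spliced count was also 0 with the coding sequence in 1 exon as the definition. Without adjustment the block left 1 member at p under 0.05. The log2 fold change of FOSL1 was 0.008 after quantile normalization and 0.012 with median of ratios, and -0.12 to 0.012 on leaving out a library. That of FOSL2 was -0.27 to 0.04, of IER2 -4.17 to 0.15 and of CEBPD -0.76 to 1.28 on leaving out a library. JUNB without control replicate 1 has no value, all remaining libraries being at 0. Of the alternatives for single members, 7 reversed the direction and 110 did not change it or the call. The depth behind the values is inferred, and a listed 0 could not be told apart from a failed estimate.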
